A study of Mus musculus with 4 samples.

Results

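Toll-like receptors and the proteins that carry their signal were followed as a set of 34 genes, chosen by name: the receptors, the co-receptors for lipopolysaccharide (LPS), a traffic chaperone, the adaptors, the kinases with their ubiquitin ligase, 2 interferon regulatory factors and 2 inhibitors. Of these, 32 had a probe set annotated to that gene alone, 1 probe set each. For Irf5 the annotation listed 1 probe set together with another gene, so it has no value of its own here, and Irak4 was not analysed here. The 4 arrays held mouse cells that the series names as type 1 conventional dendritic cells (cDC1), from C57BL/6 animals aged 10 weeks and labelled female. The groups were wild-type (WT) cells given LPS at 100 ng/ml, WT cells given LPS and recombinant mouse XCL1 at 100 ng/ml, XCR1-deficient (KO) cells given LPS, and KO cells given LPS and XCL1. All groups thus received the ligand of Toll-like receptor 4, and no array of untreated cells was used, so no effect of LPS can be read from these values. Each group had 1 array. With single arrays there is no replicate error and no p-value for any difference, and the labels do not say whether mice were pooled, which tissue the cells came from or how long they were treated.

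Toll-like receptors recognise microbial products through an ectodomain of leucine-rich repeats and signal through a cytoplasmic TIR domain. TLR4 binds LPS together with MD-2, the product of Ly96, after LBP and CD14 have handed the lipid over. MyD88 and TIRAP lead through the IRAK kinases, TRAF6, TAB2 and TAK1 (Map3k7) to NF-kB, while TRIF (Ticam1) and TRAM (Ticam2) lead through TBK1 to IRF3 and type I interferon. The receptors of nucleic acids and of protozoan profilin signal from endosomes, to which UNC93B1 brings them. Mouse cDC1 are known for TLR3, which senses double-stranded RNA, and for TLR11 and TLR12, which sense profilin.

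Values are log2 array signals, and a gene is called at a difference of 1.5-fold or more (a log2 difference of 0.585), provided its signal reached 5.43, the median of all deposited values, on at least 1 array. This limit is not a measured background, and signals of different probe sets cannot be set against each other. It was reached by 11065 named genes and by 29 of the 34 members. Tlr4, Tlr8 and Sigirr lay below it on all 4 arrays, and Tlr12, Ticam2 and Lbp reached it on 3, 2 and 1 of them. As a yardstick of measurement spread, second probe sets of 443 genes gave an SD per probe set of 0.174 to 0.231 in the 4 pairs of arrays, which holds no spread between mice or cultures.

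The targeted gene, Xcr1, which encodes the receptor of XCL1, read 6.42 and 7.19 on the WT arrays and 5.54 and 5.11 on the KO arrays. Xist, expressed from the inactive X chromosome of females, read 7.95 and 7.91 in WT but 4.64 and 4.57 in KO, and the Y-linked genes Kdm5d, Eif2s3y and Uty read 7.01 to 8.89 on all 4 arrays, although all are labelled female. The array names also carry a different prefix for each genotype. The Xist difference, the array name prefix and genotype therefore cannot be told apart in any KO minus WT value. Of 8 cDC1 markers on the array, 6 reached the limit on all 4 arrays and Itgae on none. All 9 B cell, 10 macrophage and monocyte and 7 plasmacytoid DC markers reached it on all 4 arrays too, as did 7 of 8 neutrophil and 3 of 4 T cell markers. The log2 of the summed B cell marker signals was 11.4 and 11.5 in WT and 10.9 and 10.9 in KO, that of neutrophil markers 10.2 and 10.1 in WT and 10.5 and 10.7 in KO, and that of T cell markers 9.31 and 9.27 in WT and 8.59 and 8.38 in KO. For plasmacytoid DC markers it was 11.6 and 11.5 in WT and 11.5 and 11.3 in KO, for macrophage and monocyte markers 11.97 to 12.10, and for cDC1 markers 11.5 to 11.6. Such sums are led by the brightest markers. The median KO minus WT difference of the plasmacytoid DC markers was -0.51 with LPS and -0.49 with LPS and XCL1. Of these 7 markers, 2 were above 0 in each pair, Klk1 (0.55 and 0.47) and Tcf4 (0.16 and 0.31). Macrophage and monocyte markers had medians of 0.079 and 0.090, and Fcgr1 alone was called, higher in both pairs (1.00 and 1.19). In such bulk samples, fewer cells of a type and less RNA per cell cannot be told apart.

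The pathway as a whole differed little between the arrays, and the calls came down to 3 genes. With XCL1 added in WT cells none of the 29 genes past the limit was called, where 0.560% of all genes were (62 of 11065), and with XCL1 added in KO cells only Ly96 was, lower, against 1.00% of all genes. Between the genotypes with LPS alone none was called, against 2.0% of all genes (221 of 11065). With LPS and XCL1 Tlr5 was higher and Irak1 lower in the KO, 2 of 29, against 3.44% of all genes. The XCL1 effect in WT minus that in KO passed 1.5-fold in Ly96 and Tlr5, against 2.89%. Counts of 0 to 2 among 29 genes are close to what these background shares give, so the numbers of calls say nothing particular about the pathway.

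**Figure D1:**
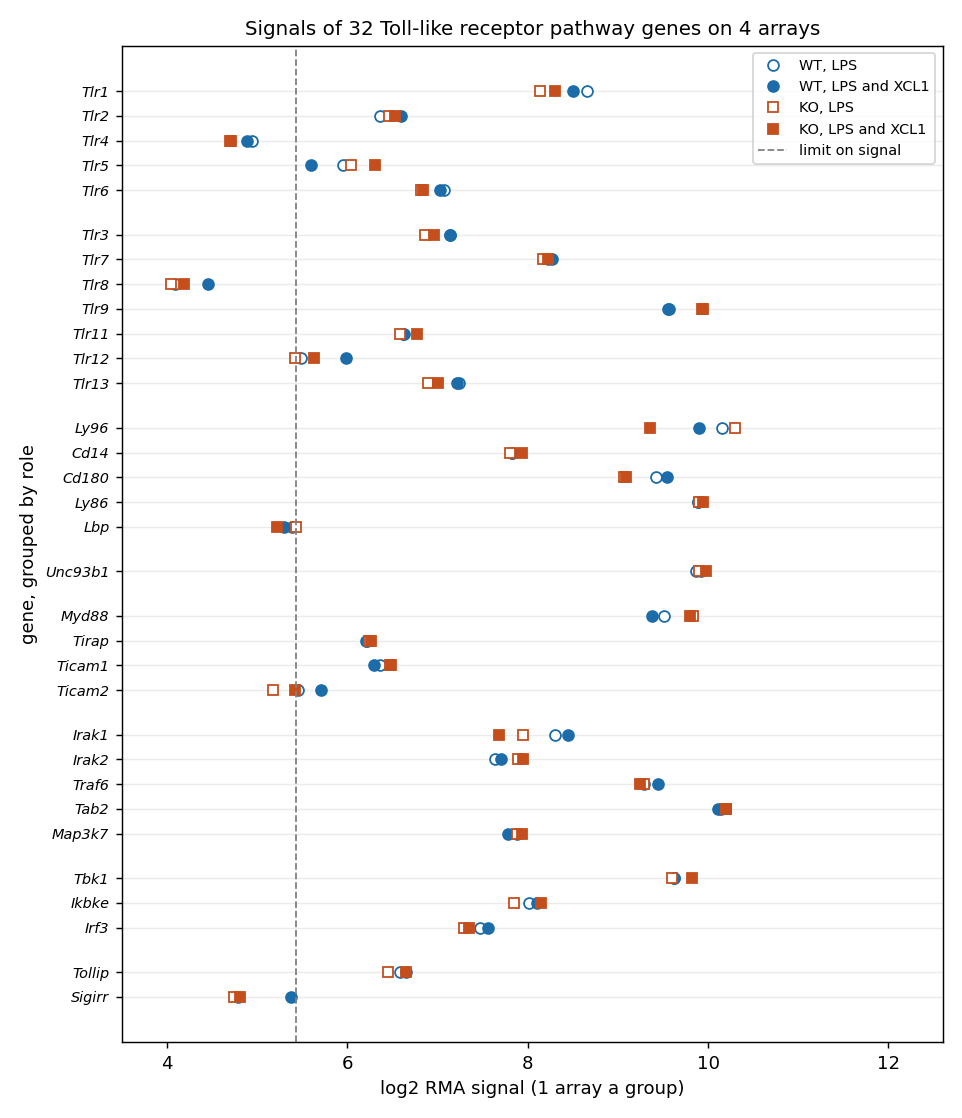
Log2 RMA signals (x axis) of the 32 measured genes (y axis, grouped by role), with 1 point for each array; blue circles are WT, orange squares KO, open symbols LPS and filled symbols LPS with XCL1, and the dashed line is the limit of 5.43. Positions compare arrays within a gene, not genes; Ly96 has its lowest point in the KO with LPS and XCL1 (9.36), while Tlr9 and Myd88 have both KO points to the right of both WT points.

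The median size of a difference was small in the pathway and among all genes. With XCL1 in WT the median of the absolute log2 differences was 0.070 over the 29 genes and 0.104 over all genes, and with XCL1 in KO 0.081 and 0.120. Between the genotypes it was 0.125 and 0.141 with LPS, and 0.190 and 0.159 with LPS and XCL1. Signed medians of the 29 genes were 0.013, 0.055, -0.023 and 0.0051 in these 4 comparisons, beside 0.029, 0.042, -0.052 and -0.039 over all genes. Centring each array on its own gene median moved every XCL1 difference by -0.069 in WT and -0.066 in KO. It moved every KO minus WT difference by 0.101 without XCL1 and 0.103 with it. The sign is therefore not settled for XCL1 differences above 0, and KO minus WT differences below 0, that are smaller than these shifts. Cyclic loess turned some of the same signs.

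**Figure D2:**
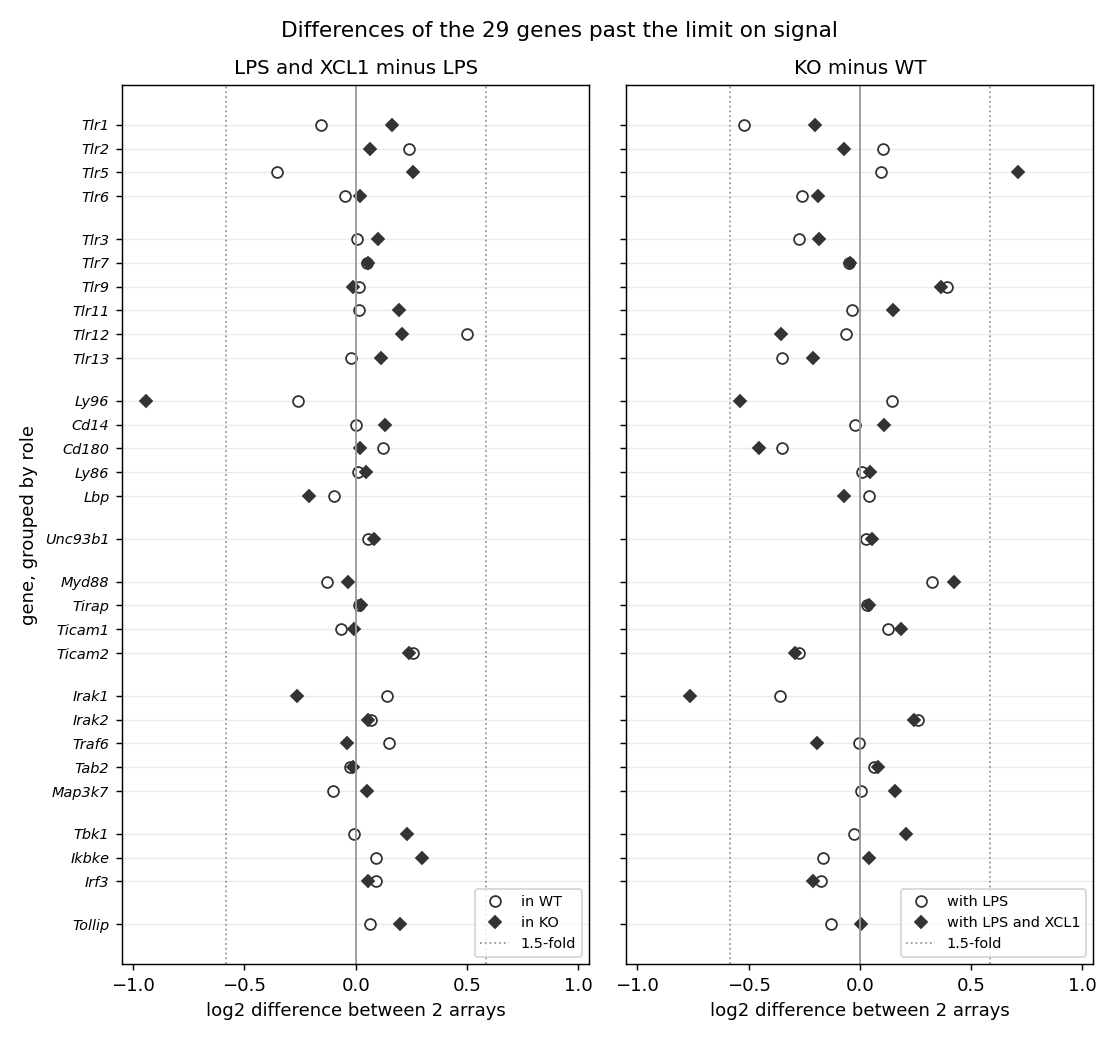
Log2 differences (x axis) of the 29 genes past the limit (y axis, grouped by role), on the left LPS with XCL1 minus LPS in WT (open circles) and KO (diamonds), on the right KO minus WT with LPS (open circles) and with LPS and XCL1 (diamonds); dotted lines mark 1.5-fold. The points beyond the dotted lines are Ly96 at -0.94 on the left, and Tlr5 at 0.71 and Irak1 at -0.76 on the right.

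Among the genes of LPS recognition, Ly96 stood out in 1 array. Its signals were 10.15 with LPS and 9.90 with LPS and XCL1 in WT, and 10.30 and 9.36 in KO. The KO array with XCL1 was thus the lowest and the KO array without it the highest. With XCL1 the KO signal was 1.92-fold lower (-0.94), the 6th lowest difference of 11065 genes, whereas the WT difference was -0.26. Of the 3093 genes with a mean signal of at least 8, only 10 (0.323%) were called in the KO pair, Ly96 among them. The XCL1 effect in WT minus that in KO was 0.68, and the KO minus WT difference went from 0.14 with LPS to -0.54 with LPS and XCL1, values that share these arrays. Ly6d, on the plasmacytoid DC list, read 9.89 and 9.64 in WT and 9.54 and 8.41 in KO, lowest on the same array as Ly96. Of the 7 markers of that list it alone was called with XCL1 in KO (-1.12): Ccr9 (0.22), Tcf4 (0.22) and Spib (0.13) were above 0, Siglech (-0.13), Klk1 (-0.20) and Cox6a2 (-0.10) below, and the list's median was -0.10. The part of plasmacytoid DC in the Ly96 value was not tested.

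Of the partners of MD-2, Tlr4 itself read 4.94 and 4.89 in WT and 4.70 and 4.71 in KO, below the limit throughout, so no fold is given. Cd14, the glycoprotein that loads LPS onto the complex, read 7.82 and 7.82 in WT and 7.80 and 7.93 in KO, with differences of at most 0.13 in size. Lbp, a plasma protein made mainly by liver, read 5.39 and 5.29 in WT and 5.43 and 5.22 in KO, the same order of arrays as Ly96, but only 1 of these signals reached the limit. Cd180 (RP105) and Ly86 (MD-1) form a complex akin to TLR4 and MD-2 that is abundant on B cells. Cd180 read 9.42 and 9.55 in WT and 9.07 and 9.09 in KO, without overlap between the genotypes, and the KO minus WT values were -0.35 and, with XCL1 added, -0.45. Ly86 read 9.88 to 9.94 on all arrays and moved by no more than 0.047. The summed B cell markers given above were lower in the KO too, with 9 of 9 markers below 0 in both genotype pairs and medians of -0.54 and -0.66. Their part in the Cd180 values was not tested.

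The other surface receptors were close to each other across the arrays except Tlr5, the flagellin receptor, and Tlr1. Tlr5 read 5.95 with LPS and 5.59 with LPS and XCL1 in WT, and 6.04 and 6.30 in KO. Its lowest signal, on the WT array with XCL1, was close to the limit, and the arrays with LPS alone differed by 0.097 between the genotypes. With LPS and XCL1 Tlr5 was 1.64-fold higher in the KO (0.71). Its XCL1 differences had opposite signs, -0.36 in WT and 0.26 in KO, and differed by -0.61. Calls are more frequent among genes as dim as Tlr5: of the 2817 with a mean signal below 6, 4.19% were called in this genotype pair and 6.60% in the difference of XCL1 effects.

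Tlr1 and Tlr6 each pair with TLR2 to bind lipopeptides and are neighbours in the genome. Tlr1 read 8.66 and 8.51 in WT and 8.14 and 8.30 in KO, so both KO arrays were below both WT arrays. The differences were -0.52 with LPS, beyond 2 SD of a probe set (0.421), and -0.20 with LPS and XCL1. With LPS, 6.95% of all genes were beyond that mark, beside 1 of the 29. Tlr6 read 7.08 and 7.03 in WT and 6.82 and 6.84 in KO, in the same order as Tlr1, with differences of -0.26 and -0.19. Tlr2, their shared partner, read 6.36 and 6.60 in WT and 6.46 and 6.53 in KO, with overlapping genotypes. Its largest difference was 0.24, with XCL1 in WT.

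Of the endosomal receptors, Tlr9 was higher in the KO by a similar amount in both pairs, below the size of a call. Tlr9, which senses unmethylated CpG DNA, read 9.55 and 9.57 in WT and 9.94 and 9.93 in KO. Both WT arrays lay within 0.017 of each other and so did both KO arrays within 0.012, and the KO minus WT differences were 0.39 and 0.36. Tlr3 read 7.13 and 7.14 in WT and 6.86 and 6.96 in KO, with differences of -0.28 and -0.18. Tlr13, the sensor of bacterial ribosomal RNA, read 7.24 and 7.22 in WT and 6.89 and 7.01 in KO (-0.35 and -0.21). Tlr9 thus had its KO signals above, and Tlr3 and Tlr13 theirs below, both WT signals, and none was called. Such an order of 2 arrays against 2 is common: 18 of the 29 genes (62.1%) and 52.1% of all genes had no overlap between the genotypes. The KO was above in 9 of the 29 (31.0%), beside 18.9% of all genes, and below in 9 (31.0%), beside 33.2%.

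The profilin receptors of cDC1 gave no pattern shared between them. Tlr11 read 6.61 and 6.62 in WT and 6.58 and 6.77 in KO. Tlr12 read 5.48 and 5.98 in WT and 5.42 and 5.63 in KO, so 1 KO array was below the limit. Its XCL1 differences were 0.50 in WT, the 74th highest of all genes, and 0.21 in KO, and the WT value was beyond 2 SD of a probe set (0.347) but below 1.5-fold. Of all genes, 5.85% were beyond that mark in this pair, beside 2 of the 29 (Tlr5 and Tlr12). Calls in this pair were more frequent among genes with a mean signal below 6, as Tlr12 has (1.46%, beside 0.560% of all genes). Tlr7, a sensor of single-stranded RNA that plasmacytoid DC and B cells express strongly, read 8.22 and 8.27 in WT and 8.17 and 8.22 in KO, with no difference above 0.056. Tlr8 read 4.04 to 4.45, below the limit on all arrays. Unc93b1, the chaperone of this group, was as even as Tlr7, at 9.87 and 9.92 in WT and 9.90 and 9.98 in KO.

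Tlr7, Tlr8, Tlr13 and Irak1 lie on the X chromosome, where Xist marks the inactive copy. The 313 X-linked genes past the limit had median KO minus WT differences of -0.052 with LPS and -0.068 with LPS and XCL1, beside -0.052 and -0.039 for 10729 autosomal genes. Of them, 3.83% and 4.79% were called, against 1.94% and 3.40% of autosomal genes. These X-linked calls went both ways, 6 higher and 6 lower with LPS, and 7 higher and 8 lower with LPS and XCL1. Among the members, Irak1 and Tlr13 were below 0 in both pairs by at least 0.21, and Tlr7 differed by -0.050 and -0.046. The part of the Xist difference in the Irak1 and Tlr13 values was not tested.

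Of the adaptors, Myd88 had the largest differences between the genotypes, and none was called. Myd88 read 9.51 and 9.38 in WT and 9.84 and 9.80 in KO. Both KO arrays were above both WT arrays, by 0.33 and, with XCL1 added, 0.42, still below 1.5-fold. These were within 2 SD of a probe set (0.421 and 0.462), and 14.5% and 10.2% of all genes differed by at least as much. The TRIF gene Ticam1 read 6.36 and 6.29 in WT and 6.48 and 6.48 in KO (0.13 and 0.18). Tirap, the sorting adaptor of TLR4 and TLR2, read 6.21 to 6.26, among the narrowest spans of the measured members. Ticam2 read 5.45 and 5.71 in WT and 5.18 and 5.42 in KO, with both KO signals below the limit. Its differences of -0.27 and -0.29 became -0.022 and -0.28 once signals below the limit were raised to it.

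Of the receptor-proximal kinases, Irak1 was lower in the KO and called with XCL1 added, while Irak2 was not called. Irak1 read 8.30 and 8.45 in WT and 7.95 and 7.68 in KO, with the lowest signal in the KO with XCL1. The KO minus WT difference was -0.36 with LPS, and with XCL1 added Irak1 was 1.70-fold lower (-0.76), the 59th lowest of all genes. Of genes with a mean signal of at least 8, as Irak1 has, 2.46% were called in that pair. Its XCL1 differences were 0.14 in WT and -0.26 in KO. Irak2, a kinase-like partner of IRAK4 that sustains late signalling, read 7.63 and 7.70 in WT and 7.89 and 7.95 in KO. Its differences were 0.26 and 0.25, and 23.5% and 31.3% of all genes differed by at least as much. Traf6, the ubiquitin ligase, read 9.29 and 9.44 in WT and 9.29 and 9.25 in KO. Tab2, the ubiquitin-binding subunit of the TAK1 complex, stayed between 10.11 and 10.20, and the TAK1 gene Map3k7 between 7.78 and 7.93.

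The TBK1 branch and the inhibitors held no call. Tbk1 read 9.63 and 9.62 in WT and 9.60 and 9.83 in KO, and its relative Ikbke 8.02 and 8.11 in WT and 7.85 and 8.14 in KO, so both had their highest signal in the KO with XCL1. Their XCL1 differences in KO were 0.23 and 0.30, both within 2 SD of a probe set (0.401). Irf3, the transcription factor they activate, read 7.47 and 7.56 in WT and 7.30 and 7.35 in KO (-0.17 and -0.21). Tollip, an adaptor that restrains IRAK1, read 6.58 and 6.65 in WT and 6.45 and 6.65 in KO. Sigirr, a receptor-like inhibitor, read 4.78 and 5.37 in WT and 4.74 and 4.81 in KO. Its difference of 0.59 with XCL1 in WT lies wholly below the limit and is not counted.

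Genotype differences can be followed in 2 pairs that share no array, although both KO arrays, like both WT arrays, may come from the same animals. Among the 29 genes, 10 were above 0 in both pairs and 11 below 0 in both, 72.4% with 1 sign, beside 67.6% of all genes. Differences of at least 0.25 in both pairs were found upward in Tlr9 and Myd88 and downward in Cd180, Ticam2 and Irak1, that is in 6.90% and 10.3% of the 29 genes, beside 4.15% and 7.19% of all genes. Ticam2 passed the limit through its WT arrays only. Once signals below the limit were raised to it, Ticam2 left the downward group. That group was then Cd180 and Irak1 (6.90%, beside 6.72% of all genes). It was the same with centring on the gene median, where 2.60% of all genes were in the downward group. With centring or cyclic loess Irak2 joined the upward group, then 10.3% of the 29 genes. The share of all genes in it was 9.10% with centring and 4.63% with cyclic loess. For XCL1, 20 of the 29 genes (69.0%) had 1 sign in WT and KO, beside 56.2% of all genes. Centring on the gene median turned the sign of 9 of the 29 genes in each XCL1 pair. In the genotype pairs it turned 6 with LPS and 3 with LPS and XCL1, so both shares of 1 sign depend on the scaling. Only Ly96, downward, reached 0.25 in both XCL1 pairs (3.45%), beside 1.72% of all genes upward and 1.18% downward.

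**Figure D3:**
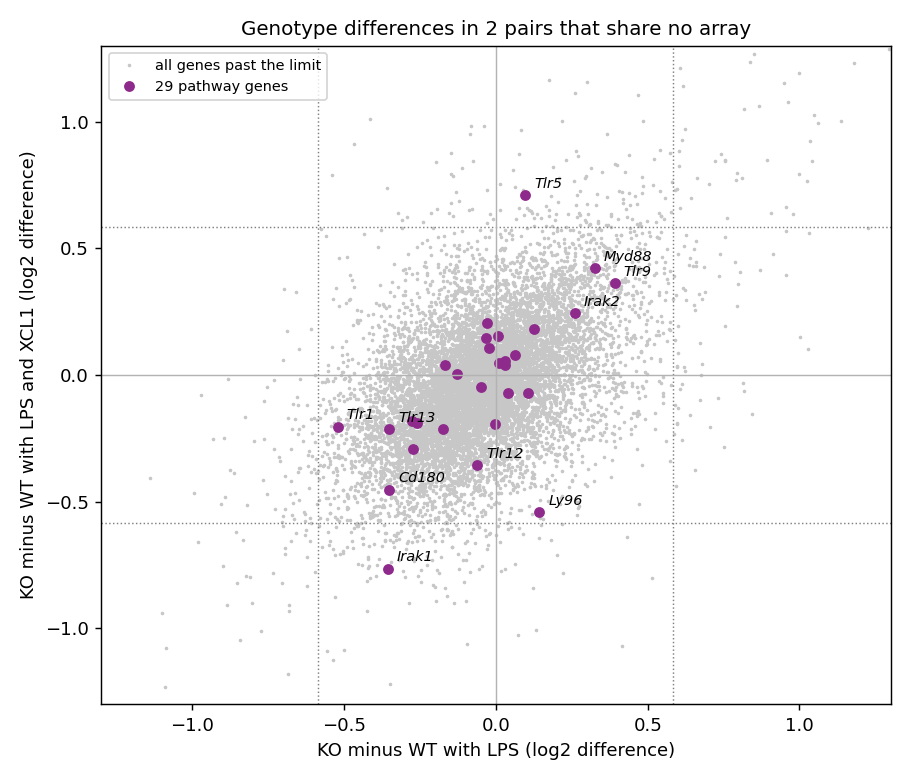
KO minus WT log2 differences with LPS (x axis) and with LPS and XCL1 (y axis) for the 29 pathway genes (purple) over all 11065 genes past the limit (grey; 10 lie outside the axes); dotted lines mark 1.5-fold. Tlr9 (0.39 and 0.36) and Myd88 (0.33 and 0.42) sit in the upper right, Irak1 (-0.36 and -0.76) and Cd180 (-0.35 and -0.45) in the lower left, and Tlr5 and Ly96 near the vertical axis.

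**Figure D4:**
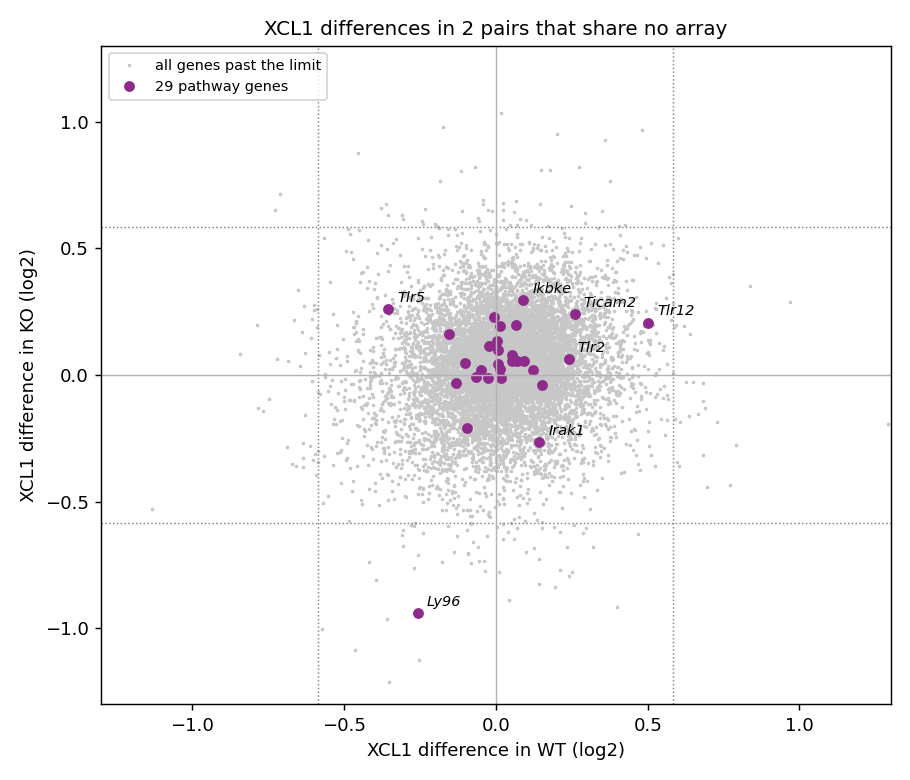
Log2 differences with XCL1 in WT (x axis) and in KO (y axis) for the same 29 genes (purple) over all genes past the limit (grey; 1 lies outside the axes); dotted lines mark 1.5-fold. Most pathway genes lie near the centre, Ly96 at -0.26 and -0.94, Tlr12 at 0.50 and 0.21 and Tlr5 at -0.36 and 0.26.

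Promoters are shown for 4 of the genes that reached 0.25 in the same direction in both genotype pairs, to set those higher in the KO beside those lower. Each runs 5′ to 3′ from 250 bases before to 50 after the annotated start, from RefSeq on GRCm38.p6, and capitals mark matches of the motifs searched. Myd88 and Tlr9 had both KO signals above both WT signals, and Cd180 and Irak1 the reverse.
Myd88, chr9:119339969-119340268, minus strand: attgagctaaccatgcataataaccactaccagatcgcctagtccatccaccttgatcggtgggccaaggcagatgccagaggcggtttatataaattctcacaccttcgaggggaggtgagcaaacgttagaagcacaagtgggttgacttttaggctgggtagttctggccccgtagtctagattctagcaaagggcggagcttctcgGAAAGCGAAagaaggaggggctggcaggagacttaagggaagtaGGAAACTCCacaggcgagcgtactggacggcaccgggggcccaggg
Tlr9, chr9:106222348-106222647, plus strand: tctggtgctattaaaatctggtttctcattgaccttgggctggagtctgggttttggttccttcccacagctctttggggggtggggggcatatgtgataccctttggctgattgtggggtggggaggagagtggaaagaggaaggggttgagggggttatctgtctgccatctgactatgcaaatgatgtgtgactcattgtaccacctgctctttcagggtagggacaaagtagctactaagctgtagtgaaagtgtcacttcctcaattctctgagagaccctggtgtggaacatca
Cd180, chr13:102693297-102693596, plus strand: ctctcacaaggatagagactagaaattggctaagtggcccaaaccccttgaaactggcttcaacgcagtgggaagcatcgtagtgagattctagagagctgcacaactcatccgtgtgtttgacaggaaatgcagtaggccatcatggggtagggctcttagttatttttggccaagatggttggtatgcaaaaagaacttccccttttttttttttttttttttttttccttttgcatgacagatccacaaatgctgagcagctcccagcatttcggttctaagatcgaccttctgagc
Irak1, chrX:74023872-74024171, minus strand: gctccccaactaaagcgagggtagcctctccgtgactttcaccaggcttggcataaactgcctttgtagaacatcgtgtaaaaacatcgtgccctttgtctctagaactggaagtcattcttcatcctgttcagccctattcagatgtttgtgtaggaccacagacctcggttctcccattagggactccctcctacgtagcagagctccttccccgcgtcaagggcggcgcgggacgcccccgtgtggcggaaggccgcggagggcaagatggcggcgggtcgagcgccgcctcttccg

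Searches on both strands used GAAANNGAA, the core of the interferon-stimulated response element, GGANTTTCC, a form of the NF-kB site, and CACGTG, a form of the E-box. Their matches do not overlap in the windows shown. The Myd88 window held the first as GAAAGCGAA, 40 bases before the start, and the second on the other strand as GGAAACTCC, from 5 bases after it. The windows of Tlr9, Cd180 and Irak1 held none of the 3, which says only that these letters are not there. Of 32851 RefSeq promoter windows of this length, 8.56% held the first motif, 1.25% the second and 7.15% the third. Of the 32 windows of 26 members in the table, 5 held the first (Ly86, Myd88, Tlr6, Tlr8 and Tlr11), 3 the second (Map3k7, Myd88 and Tlr3) and 3 the third (Tbk1, Ticam1 and Tlr1). Members with the first motif shared no direction between the genotypes, and none was called. Myd88 was above 0 and Tlr6 below 0 in both pairs, and Ly86 stayed within 0.047. Tlr11 differed by -0.0335 and 0.15, and Tlr8 lay below the limit.

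A list of 44 further genes held negative regulators, receptor folding and traffic factors, kinase and ubiquitin steps, transcription factors and LPS response genes, and 38 of them passed the limit. None of these 38 was called for XCL1 in WT, in KO or in the difference between these, and 1 was called in each genotype pair, counts near those that the shares of all genes give (0.560%, 1.00%, 2.89%, 2.0% and 3.44%). With LPS alone Il12b, a subunit of IL-12 and IL-23, was lower in the KO, 11.91 in WT and 11.25 in KO (-0.67, and -0.51 with LPS and XCL1). With LPS and XCL1 Il6 was higher, 9.77 in WT and 10.47 in KO (0.69, and 0.42 with LPS). Medians of the list were -0.014 and 0.054 for XCL1 in WT and KO, and 0.012 and 0.036 for the genotype pairs.

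Some genes of this list, picked after their values were seen, are given beside the members. Irf7, the interferon regulatory factor that MyD88 engages below TLR7 and TLR9, read 11.36 and 11.48 in WT and 11.73 and 11.89 in KO (0.37 and 0.40). Pik3ap1, the adaptor BCAP that links Toll-like receptors to PI3K, read 10.92 and 10.89 in WT and 11.28 and 11.33 in KO (0.36 and 0.44). Both thus had KO signals above WT, and neither was called. Of this list, Il6 and Cxcl10 (0.29 and 0.31) also reached 0.25 upward in both pairs, and Il12b did so downward. Of all genes, 4.15% did so upward and 7.19% downward. Of the 8 negative regulators, 7 passed the limit and none was called. Their KO minus WT differences ran from -0.25 (Irak3) to 0.21 (Dusp1) with LPS, and from -0.11 (Cyld) to 0.32 (Tnip1) after XCL1. Tnfaip3, the A20 deubiquitinase, read 10.77 to 10.91. Irak3, the inhibitory IRAK, read 8.29 and 8.08 in WT and 8.04 and 8.19 in KO, with XCL1 differences of -0.21 and 0.15. The folding factors Hsp90b1 (gp96) and Cnpy3, which most Toll-like receptors need, read 11.09 to 11.19 and 8.19 to 8.62, Cnpy3 being highest in the KO with XCL1.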

How the data were processed

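Total RNA of 4 mouse samples was hybridised to MoGene-2_0-st arrays, per the labels' protocols. The authors deposited log2 signals for 41345 gene-level probe sets, summarised by RMA per the labels, which equalises the arrays and hides any shift of most genes. The program behind RMA and the build of its annotation were not given in the sources used here. Depth does not apply to arrays, and their number (1 a group) limits the precision.

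Probe sets were named from the platform annotation (25335 listed, 23521 with 1 symbol, of which 23328 matched a RefSeq gene ID), and the symbols of the members were current. Olfactory receptors, antigen receptor segments, small RNAs and predicted genes were dropped, and the probe set with the highest mean stood for a gene, leaving 17253 genes, 11065 of them past the limit. Differences of single arrays were counted at 1.5-fold with no test, and the counting was tested on simulated data. Every member is accounted for: those with a call, a repeated difference of 0.3, or a core role were given with all signals. The members and lists were chosen with earlier results of these data known. Alternatives were 2-fold, no limit, a limit of 6.91, cyclic loess (limma 3.58.1, span 0.7, 3 iterations), centring, the mean of probe sets, raising dim signals to the limit, and keeping probe sets with several symbols. Python 3.11.15 and pandas 2.3.3 were used.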

Additional observations from a re-analysis of the deposited data

Results flagged for a closer look

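Tlr5, the flagellin receptor, had XCL1 differences of opposite sign in WT (-0.36) and KO (0.26), and their difference of -0.61 passed 1.5-fold. With 1 array a group the difference was not tested. It was -0.59 with cyclic loess and -0.62 with centring on the gene median, and the stricter limit on signal leaves Tlr5 out.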

How the results depend on the processing

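No paired analysis was possible because each group has 1 array, and no array could be left out. Members called: at 2-fold there were 0 in all 5 comparisons. With no limit on signal 1 member (Sigirr, higher) was called for XCL1 in WT. With the stricter limit, which 20 members reach, 1 was called between the genotypes after XCL1 (Irak1) and 1 in the difference of XCL1 effects (Ly96), since Tlr5 is below it. The other alternatives called the same members as the values reported, and no called member changed sign.

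Over all genes, the 62, 111, 221, 381 and 320 calls (XCL1 in WT, XCL1 in KO, KO minus WT with LPS, the same after XCL1, difference of XCL1 effects) became 2, 6, 23, 41 and 22 at 2-fold, 11, 26, 103, 193 and 71 with the stricter limit, and 176, 213, 340, 558 and 726 with none. With dim signals raised to the limit they were 27, 65, 169, 301 and 205. Centring moved the share of calls that were higher from 40.3% to 16.7%, 45.9% to 22.8%, 50.2% to 79.8% and 48.0% to 78.8% in the first 4, and cyclic loess moved the first to 50.8%. Centring turned the sign of 9, 9, 6 and 3 members there and cyclic loess of 4, 6, 3 and 0, none of them called. The probe set shared by Irf5 and Tnpo3, kept in an alternative, read 9.50 and 9.64 in WT and 9.69 and 9.69 in KO.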
